A study of Mus musculus with 13 samples.

Results

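The transcripts of 10 genes of the heat shock and cold-inducible programmes were followed by name in bulk RNA from mouse submandibular gland, a major salivary gland. They were Hspa1a, Hspa1b, Hsph1, Hsp90aa1, Dnajb1, Hspb1, Hspa8 and Hspe1 of the heat shock response, and Cirbp and Rbm3 of the mild-cold response. All 10 were chosen by symbol, as well-known members of these programmes, and the choice was made with earlier results of these libraries known. The deposited count table holds 48709 genes, and the deposited normalised table holds 17957 entries, with all 10 of these genes in both. In all groups the mice were 1 year old, the strain was given as CH3, and glands were taken on day 300 after treatment. PreIR-GFP glands (5 libraries) received AAV2-GFP, an adeno-associated virus carrying green fluorescent protein, 10 days before irradiation. PreIR-NTN glands (5 libraries) received Cere-120, the same kind of vector carrying neurturin (AAV2-NRTN), 10 days before irradiation. NonIR glands (3 libraries) were not irradiated. The vector status of NonIR mice and the radiation dose are details not given in the sources used here, so irradiation and vector cannot be told apart in a comparison with NonIR. Neurturin is a growth factor that acts on parasympathetic neurons. Nothing in the labels links each replicate to its own animal, so p-values measure the spread between these libraries, which may be technical.

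Heat shock proteins are chaperones that hold, refold or hand on unfolded proteins. When unfolded protein builds up, the transcription factor HSF1 is freed from chaperones, forms a trimer and binds inverted repeats of GAA in the promoters of chaperone genes, of which the inducible HSP70 genes respond most steeply. Warm or slow tissue handling is a known inducer of the same genes. CIRBP and RBM3 are RNA-binding proteins whose transcripts accumulate at mildly lowered temperature and follow the daily rhythm of body temperature.

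The libraries held 9724301 to 16771003 reads. Gland identity was checked on the acinar water channel Aqp5, at 134 to 269 CPM (counts per library scaled to a common size), on the granular tubule growth factor Egf, at 214 to 1517 CPM, and on the duct keratin Krt19, at 2.44 to 8.45 CPM. The summed level of 8 skeletal muscle markers was 290.0 CPM in PreIR-GFP 2 and at most 5.65 CPM in the other 12 libraries. In bulk RNA, fewer cells of a type and less RNA per cell cannot be told apart.

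None of these genes differed in a called way between the groups. At 300 days the inducible HSP70 transcripts were counted at under 1 CPM in all 13 libraries, and the constitutive Hspa8 at 176 to 264 CPM. These levels are uncertain, since much of each transcript also stands in other genes (below). Cirbp and Rbm3 differed by no more than 1.66-fold between any 2 libraries. Of the 10 genes, 9 passed the filter on low counts and were tested. Hspa1b did not pass. In PreIR-GFP against NonIR, 0 of the 9 had an adjusted p below 0.05 (edgeR quasi-likelihood test, Benjamini-Hochberg over 14727 genes), where 0.034% of all genes tested were called. In PreIR-NTN against PreIR-GFP and in PreIR-NTN against NonIR, 0 of the 9 were called as well, with a background of 0.0204% in each. At this background a count of 0 says little about these genes, and the intervals below carry the information. In the fit to all 13 libraries no gene of the 9 reached an unadjusted p below 0.05 in any of the 3 comparisons, where 8.78% of all genes did in PreIR-GFP against NonIR, 6.08% in PreIR-NTN against PreIR-GFP and 7.97% in PreIR-NTN against NonIR. In other settings 2 of the 9 did reach it without being called. These were Hsp90aa1 in PreIR-GFP against NonIR, without PreIR-GFP 4 (edgeR adjusted p = 0.266), and Hspb1 in PreIR-NTN against PreIR-GFP without PreIR-GFP 4 (edgeR adjusted p = 0.587). DESeq2 also called none of them. It gave no adjusted p for Hspa1a in both comparisons with NonIR and for Hspb1 in PreIR-NTN against NonIR. Over all genes it called 0.574% in PreIR-GFP against NonIR, 0.201% in PreIR-NTN against PreIR-GFP and 0.399% in PreIR-NTN against NonIR. Nor did limma-voom, but it called 0 genes of the whole table in the first 2 comparisons and 0.00679% in PreIR-NTN against NonIR, so its count carries no information about them. For all 9 genes the libraries of the groups overlapped, where 5.14%, 1.11% and 6.52% of all genes tested had groups that did not overlap in those 3 comparisons.

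**Figure D1:**
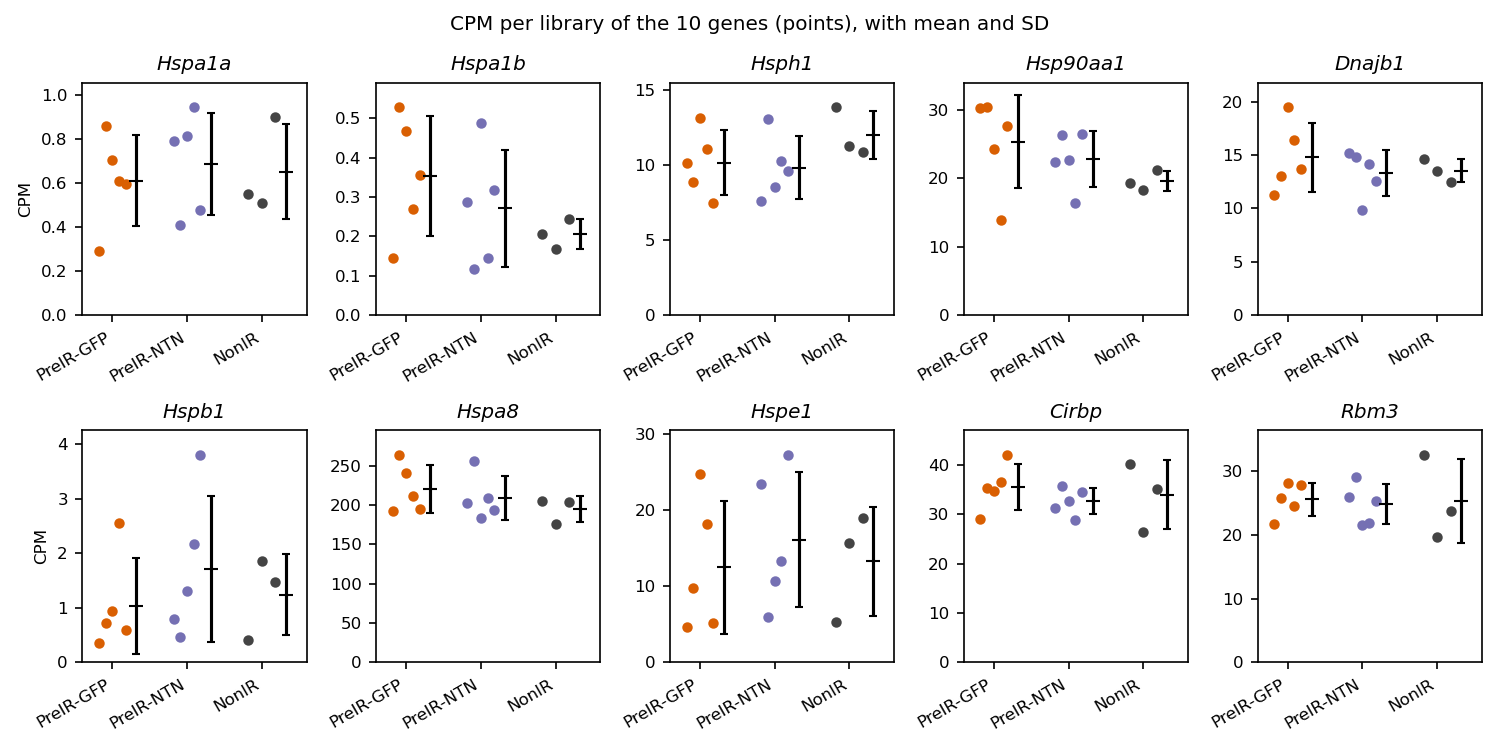
CPM of each of the 10 genes (vertical axes, linear, starting at 0) in each library of PreIR-GFP (n = 5), PreIR-NTN (n = 5) and NonIR (n = 3). Points are libraries in replicate order and bars give the mean and SD; the groups overlap for every gene, and Hspb1 and Hspe1 spread most within a group.

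The 2 inducible HSP70 genes come first, since they respond most steeply to heat. Hspa1a (ENSMUSG00000091971, chr17:34969190-34972156, minus strand, GRCm38) and Hspa1b (ENSMUSG00000090877, chr17:34956436-34959238, minus strand) encode almost the same protein. Their promoters in RefSeq (GRCm38.p6) differ at 3 of the 250 bases before the start of transcription. A stretch around the GAANNTTC match is shown because it holds an inverted pair of the GAA unit of heat shock elements and is the same in both genes. Capitals mark the match:
Hspa1a, chr17:34972223-34972290, minus strand: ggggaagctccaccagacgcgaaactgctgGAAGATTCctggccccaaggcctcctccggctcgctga
Hspa1b, chr17:34959305-34959372, minus strand: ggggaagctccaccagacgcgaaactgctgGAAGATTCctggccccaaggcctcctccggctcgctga

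Hspa1a measured 0.290, 0.858, 0.704, 0.607 and 0.594 CPM in PreIR-GFP replicates 1 to 5. It measured 0.789, 0.411, 0.815, 0.943 and 0.476 CPM in PreIR-NTN replicates 1 to 5, and 0.547, 0.506 and 0.899 CPM in NonIR replicates 1 to 3. The groups overlap fully, and the lowest library, PreIR-GFP 1, held 4 reads of the gene. The log2 fold change was -0.08 for PreIR-GFP against NonIR (SE 0.43, 95% interval -0.99 to 0.83, edgeR adjusted p = 0.979) and 0.15 for PreIR-NTN against PreIR-GFP (SE 0.36, interval -0.62 to 0.92). Both intervals lie inside a 2-fold change either way, the first only just, and they rest on 4 to 13 reads per library.

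Hspa1b was lower still, with 2 to 8 reads per library and 52 reads in all, against 117 reads for Hspa1a. Its mean was 0.354 ± 0.154 CPM in PreIR-GFP, 0.271 ± 0.149 CPM in PreIR-NTN and 0.206 ± 0.0382 CPM in NonIR (SD, n = 5, 5 and 3). Without the filter its log2 fold change was 0.74 for PreIR-GFP against NonIR (95% interval -0.56 to 2.04, edgeR adjusted p = 0.860) and -0.42 for PreIR-NTN against PreIR-GFP (95% interval -1.46 to 0.61, edgeR adjusted p = 0.863). Of all 50-base words of the Hspa1a transcript, 58.8% also stand in Hspa1b, and Hspa1a overlaps Gm20481 on the opposite strand over 2225 bases. Counting all other genes, 66.3% of the words of Hspa1a and 62.3% of those of Hspa1b stand elsewhere. The treatment of reads that map to several places was not given in the sources used here, and the library kit does not keep strand. The split of reads between these genes and the level of each are thus uncertain.

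Hsph1 and Dnajb1 encode partners of HSP70. HSPH1, of the HSP110 family, exchanges its nucleotide, and DNAJB1, a J-domain protein of the HSP40 family, delivers substrates and stimulates its ATPase. Hsph1 (ENSMUSG00000029657) lies at chr5:149614287-149636376 on the minus strand, and Dnajb1 (ENSMUSG00000005483) at chr8:83608193-83612653 on the plus strand. The RefSeq promoter entry of Hsph1 holds a TTCNNGAA match, shown in capitals because it is the same inverted repeat in the other phase. All 20 bases printed also lie in the first exon of Hsph1 in GENCODE, which starts transcription further upstream:
Hsph1, chr5:149636356-149636375, minus strand: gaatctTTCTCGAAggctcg

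Hsph1 measured 10.2, 8.84, 13.1, 11.1 and 7.49 CPM in PreIR-GFP, then 7.60, 13.1, 8.55, 10.2 and 9.60 CPM in PreIR-NTN, and 13.8, 11.2 and 10.9 CPM in NonIR. The 3 NonIR libraries lie in the upper part of the range, but 2 PreIR-GFP libraries and 1 PreIR-NTN library reach above the lowest of them. The log2 fold change was -0.24 for PreIR-GFP against NonIR (SE 0.20, interval -0.67 to 0.18, edgeR adjusted p = 0.786) and -0.29 for PreIR-NTN against NonIR (SE 0.20, interval -0.71 to 0.14, edgeR adjusted p = 0.775). PreIR-NTN and PreIR-GFP had nearly the same mean, with a log2 fold change of -0.04 (interval -0.42 to 0.33).

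Dnajb1 measured 11.2, 13, 19.5, 16.5 and 13.7 CPM in PreIR-GFP, then 15.2, 14.8, 9.86, 14.1 and 12.6 CPM in PreIR-NTN, and 14.6, 13.5 and 12.5 CPM in NonIR. The NonIR libraries sit inside the range of each irradiated group. Its log2 fold change was 0.12 for PreIR-GFP against NonIR (SE 0.19, interval -0.27 to 0.52) and -0.15 for PreIR-NTN against PreIR-GFP (SE 0.16, interval -0.49 to 0.19). Neither the GAANNTTC nor the TTCNNGAA letters stand in the 250 bases before its start in RefSeq.

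Hsp90aa1 (ENSMUSG00000021270, chr12:110690605-110702728, minus strand) encodes the inducible cytosolic HSP90, which holds kinases and steroid receptors in an activatable state. It measured 30.3, 30.4, 24.3, 14.0 and 27.7 CPM in PreIR-GFP, then 22.4, 26.4, 22.6, 16.3 and 26.4 CPM in PreIR-NTN, and 19.4, 18.3 and 21.2 CPM in NonIR. Of the 5 PreIR-GFP libraries, 4 lie above all 3 NonIR libraries, and the remaining one, PreIR-GFP 4, is the lowest of all 13. Its log2 fold change for PreIR-GFP against NonIR was 0.37 (SE 0.22, interval -0.10 to 0.84, edgeR adjusted p = 0.672), which gave the lowest p of the 9 genes in that comparison. Without PreIR-GFP 4 it was 0.52 (edgeR adjusted p = 0.266), still not called. For PreIR-NTN against NonIR it was 0.22 (SE 0.22, interval -0.25 to 0.69) and for PreIR-NTN against PreIR-GFP -0.15 (SE 0.19, interval -0.55 to 0.25). Of the 50-base words of Hsp90aa1, 58.5% also stand in transcripts of 4 other genes, so its level is uncertain.

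The constitutive cytosolic HSP70, Hspa8 (ENSMUSG00000015656, chr9:40800984-40810087, plus strand), folds new proteins and uncoats clathrin vesicles. It was the most abundant of the 10 per length of exon and had the lowest highest-to-lowest ratio of the 10, at 1.499 over the 13 libraries. It measured 192, 264, 240.4, 211 and 195 CPM in PreIR-GFP, then 202, 256, 184, 209 and 194 CPM in PreIR-NTN, and 205, 176 and 204 CPM in NonIR. PreIR-GFP 2 and 3 and PreIR-NTN 2 are the high libraries, and the remaining 10 lie between 176 and 211 CPM. The log2 fold change was 0.18 for PreIR-GFP against NonIR (SE 0.14, interval -0.12 to 0.48, edgeR adjusted p = 0.770) and -0.08 for PreIR-NTN against PreIR-GFP (SE 0.12, interval -0.34 to 0.18). Of its 50-base words, 74.8% also stand in transcripts of 13 other genes and 3 small nucleolar RNA genes (Snord14c, Snord14d and Snord14e) lie within it on the same strand, so its level is uncertain.

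**Figure D2:**
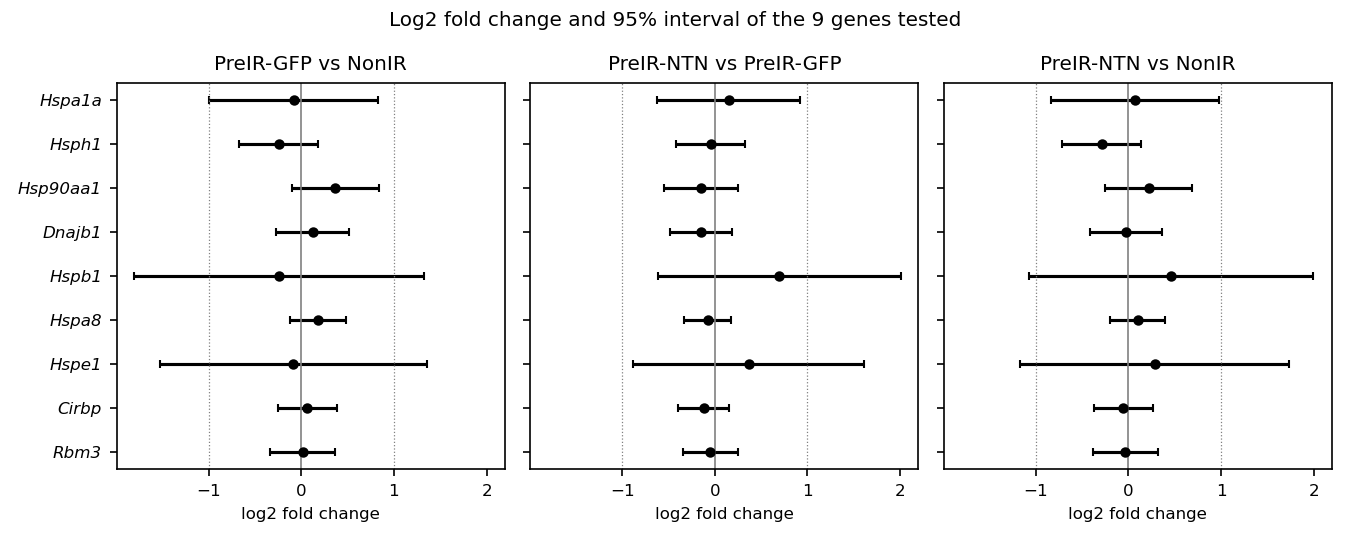
Log2 fold change (horizontal axes, log2 scale) with its 95% interval for the 9 genes tested, in PreIR-GFP against NonIR, PreIR-NTN against PreIR-GFP and PreIR-NTN against NonIR; dotted lines mark a 2-fold change. All intervals cross 0, and those of Hspb1 and Hspe1 alone reach past the dotted lines.

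Hspb1 and Hspe1 spread most between libraries of the same group. HSPB1, a small heat shock protein, forms oligomers that hold unfolded proteins without ATP. HSPE1 is the lid of the mitochondrial chaperonin, whose barrel is HSPD1. Hspb1 (ENSMUSG00000004951) lies at chr5:135887919-135889563 on the plus strand. Hspe1 (ENSMUSG00000073676, chr1:55088132-55091307, plus strand) and Hspd1 (chr1:55077835-55088243) stand head to head and are known to share a promoter between them. Of the 7 genes with a promoter in RefSeq (Hspa8, Hsp90aa1 and Rbm3 had no entry), these hold the most matches. Capitals mark them, and the 3 of Hspe1 overlap one another. The 30 bases shown for Hspe1 lie upstream of it and inside the annotated first exon of Hspd1 on the other strand:
Hspe1, chr1:55088053-55088082, plus strand: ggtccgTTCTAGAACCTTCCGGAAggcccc
Hspb1, chr5:135887772-135887859, plus strand: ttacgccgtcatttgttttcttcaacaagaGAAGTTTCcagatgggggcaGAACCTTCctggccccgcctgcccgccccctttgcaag

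In all, 5 of the 7 genes had GAANNTTC or TTCNNGAA within 250 bases before the start, against 12.8% of 32851 RefSeq promoters of the same length. Each motif is its own reverse complement, so both strands were covered. The 5 were Hspa1a, Hspa1b, Hsph1, Hspb1 and Hspe1, and the letters were not found in Dnajb1 and Cirbp. The 5 genes with a match ran from 0.206 CPM (Hspa1b) to 13.3 CPM (Hspe1) in NonIR and none of the 4 that were tested was called. A match is a description of the letters and not a measured binding site. Most of these genes were chosen as known heat shock genes, and Hspa1a and Hspa1b have nearly the same promoter. Their share with a match is thus no separate result. A gene was counted if any of its promoter entries held a match, while the 12.8% is over single entries.

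Hspe1 measured 4.71, 9.70, 24.7, 18.1 and 5.17 CPM in PreIR-GFP, then 23.4, 5.98, 10.7, 13.3 and 27.2 CPM in PreIR-NTN, and 5.27, 15.6 and 18.9 CPM in NonIR. Each group holds both low and high libraries, so the range within a group is 3.58-fold or more. The log2 fold change was -0.09 for PreIR-GFP against NonIR (SE 0.65, interval -1.53 to 1.35, edgeR adjusted p = 0.988) and 0.37 for PreIR-NTN against PreIR-GFP (SE 0.57, interval -0.88 to 1.62, edgeR adjusted p = 0.991). For PreIR-NTN against NonIR it was 0.28 (SE 0.66).

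Hspb1 measured 0.363, 0.726, 0.938, 2.56 and 0.594 CPM in PreIR-GFP, then 0.789, 0.469, 1.30, 2.18 and 3.81 CPM in PreIR-NTN, and 0.411, 1.86 and 1.47 CPM in NonIR. Its lowest library had 5 reads and its highest 48, a ratio of 10.5 in CPM. The log2 fold change was -0.24 for PreIR-GFP against NonIR (SE 0.73, interval -1.80 to 1.33, edgeR adjusted p = 0.967) and 0.70 for PreIR-NTN against PreIR-GFP (SE 0.61, interval -0.62 to 2.01, edgeR adjusted p = 0.956). Without PreIR-GFP 4 the second value was 1.36 and not called (edgeR adjusted p = 0.587). Of its 50-base words, 51.6% also stand in the pseudogene Hsp25-ps1.

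The biological coefficient of variation, the spread between libraries beyond counting error, was 0.541 for Hspe1 and 0.625 for Hspb1, against a median of 0.217 over all genes tested. Of all genes tested, 95.2% varied less than Hspe1 and 97.3% less than Hspb1, while Cirbp, at 0.167, varied less than most, with 17.9% of genes below it. Among the 1000 genes nearest in level, 97.8% varied less than Hspe1, 96.2% less than Hspb1 and 37.1% less than Cirbp. For Hspa1a, at 0.255, 11.8% of such genes varied less, so its intervals rest on a low spread for its level. Hspe1 and Hspb1 are also the only genes of the 10 whose longest annotated transcript is under 1000 bases, at 964 bases for Hspe1 and 930 bases for Hspb1. Over 264 other protein-coding genes with transcripts under 1000 bases and at least 10 CPM, the median coefficient was 0.461, and over 3769 genes with transcripts of 3000 bases or more it was 0.179. Hspe1 varied more than 65.2% of the short-transcript genes.

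A short-transcript level was therefore set for each library, as the median log2 deviation of those 264 genes from their own means. None of the 10 genes enters it. This was added after the data were seen. The level was -1.25, 0.19, 0.66, 0.61 and -0.83 in PreIR-GFP, then 0.72, -0.99, -0.22, 0.32 and 0.68 in PreIR-NTN, and -0.71, 0.17 and 0.42 in NonIR. Long transcripts stayed between -0.07 and 0.10. The low libraries are PreIR-GFP 1, PreIR-GFP 5, PreIR-NTN 2 and NonIR 1, and they come from all 3 groups. They are the 4 lowest for Hspe1, at 4.71 to 5.98 CPM against 9.70 to 27.2 CPM in the other 9, and for Hspb1, at 0.363 to 0.594 CPM against 0.726 to 3.81 CPM.

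Over the 13 libraries Hspe1 followed this level with Pearson's r of 0.958 (permutation p = 1e-05, the smallest the permutations can give, adjusted over 10 relations 0.0001) and Spearman's rho of 0.934 (permutation p = 2e-05, adjusted 0.0002). Without the 2 libraries farthest from the median level, PreIR-GFP 1 and PreIR-NTN 2, r was 0.956, and with group means removed it was 0.960. For Hspb1 r was 0.742 (permutation p = 0.00478, adjusted 0.0239) and rho 0.687 (permutation p = 0.0119, adjusted 0.0593). Without the 2 farthest libraries its r was 0.608 (permutation p = 0.0492, adjusted 0.246), so the call was lost without those libraries while r remained positive. With group means removed it was 0.739. None of the other 8 genes passed.

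Other measures differed between the same libraries. The summed level of 9 acinar markers was 62047 to 176516 CPM in the 4 libraries low in short transcripts, against 154880 to 306226 CPM in the other 9. Summed granular tubule markers were 13936 to 38576 CPM in the 4 and 34080 to 50580 CPM in the 9. Duct markers were alike, at 937 to 1242 CPM in the 4 and 957 to 1261 CPM in the 9. Endothelial markers were 37.6 to 39.1 CPM in the 4, against 26.7 to 41.9 CPM with a median of 28.0 in the 9. B and plasma cell markers had a median of 352 CPM (22.5 to 1219.6) in the 4 and of 166 CPM (46.0 to 458) in the 9. The 4 libraries held 9724301 to 14438509 reads and the 9 held 11434807 to 16771003. The acinar, granular tubule and B and plasma cell sums rest mostly on a few genes. In NonIR, Smgc and Mucl2 averaged 119139 and 116260 CPM, and Aqp5 175.6 CPM. Klk1b26 and Crisp3 averaged 20174 and 17382 CPM there, and Egf 1291 CPM. Jchain averaged 199 CPM and Cd79b 1.59 CPM. A sum therefore does not show that the other markers of its list differed. The part of these markers and of depth in the Hspe1 and Hspb1 values was not tested.

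With the short-transcript level as a covariate, the standard error of Hspe1 fell to 0.19 in PreIR-GFP against NonIR, where the log2 fold change was -0.11 (interval -0.50 to 0.29, edgeR adjusted p = 0.864). In PreIR-NTN against PreIR-GFP it was 0.18 (SE 0.16, interval -0.16 to 0.53, edgeR adjusted p = 0.852). Both intervals then lay inside a 2-fold change. The level was set after the data were seen and followed Hspe1 with r of 0.958, so the smaller standard error is no separate result. The summed acinar markers also differed between libraries low and high in this level, and the covariate does not separate the 2. For Hspb1 the log2 fold change with the covariate was 0.50 in PreIR-NTN against PreIR-GFP (SE 0.41, interval -0.38 to 1.37).

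**Figure D3:**
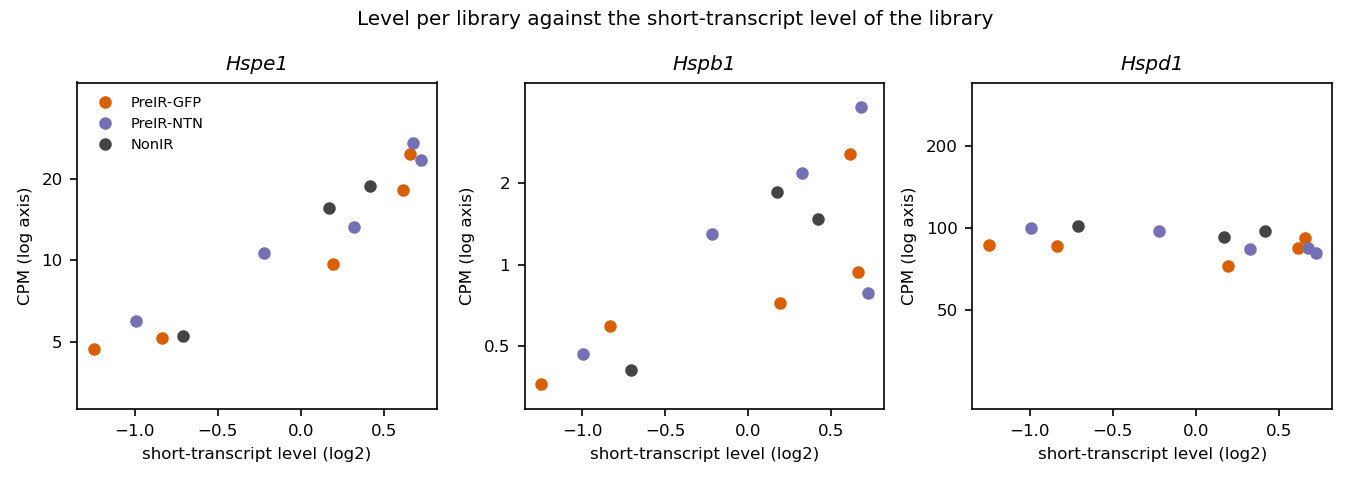
CPM of Hspe1, Hspb1 and Hspd1 (vertical axes, log scale, each spanning the same fold) against the short-transcript level of the library (horizontal axes, log2) in PreIR-GFP (n = 5), PreIR-NTN (n = 5) and NonIR (n = 3). Hspe1 climbs with that level in every group, Hspb1 does so more loosely, and Hspd1 stays between 72.5 and 102 CPM.

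The chaperonin barrel gene did not share the spread of its lid. Hspd1, whose longest transcript has 2423 bases, measured 72.5 to 102 CPM over the 13 libraries, a highest-to-lowest ratio of 1.41 against 5.77 for Hspe1. Its Pearson correlation with Hspe1 over the 13 libraries was -0.22, given as a description. The CPM ratio of Hspe1 to Hspd1 thus ran from 0.0515 in NonIR 1 to 0.321 in PreIR-NTN 5. Hspd1 averaged 84.3 ± 7.21 CPM in PreIR-GFP and 97.4 ± 4.92 CPM in NonIR (SD, n = 5 and 3), and those groups did not overlap. Its log2 fold change of -0.21 was not called (edgeR adjusted p = 0.645). The annotated genes overlap by 112 bases on opposite strands, and 44.8% of the 50-base words of Hspe1 stand in other genes, so some of its reads may be uncertain.

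Cirbp and Rbm3, whose RNA-binding proteins stabilise and help translate transcripts in the cold, were close in all groups. Cirbp (ENSMUSG00000045193) lies at chr10:80165985-80172786 on the plus strand and Rbm3 (ENSMUSG00000031167) at chrX:8138975-8145880 on the minus strand. Cirbp measured 29.0, 35.4, 34.7, 36.5 and 42.0 CPM in PreIR-GFP, then 31.3, 35.7, 32.7, 28.9 and 34.6 CPM in PreIR-NTN, and 40.2, 26.5 and 35.1 CPM in NonIR. Rbm3 measured 21.8, 25.8, 28.1, 24.6 and 27.8 CPM in PreIR-GFP, then 26.0, 29.2, 21.6, 21.9 and 25.4 CPM in PreIR-NTN, and 32.6, 19.7 and 23.8 CPM in NonIR. NonIR holds the lowest library of both genes, NonIR 2, and the highest of Rbm3, NonIR 1.

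For PreIR-GFP against NonIR the log2 fold change was 0.06 for Cirbp (SE 0.15, interval -0.25 to 0.38, edgeR adjusted p = 0.947) and 0.02 for Rbm3 (SE 0.16, interval -0.33 to 0.36, edgeR adjusted p = 0.992). For PreIR-NTN against PreIR-GFP it was -0.12 for Cirbp (SE 0.13, interval -0.40 to 0.15) and -0.05 for Rbm3 (SE 0.14, interval -0.35 to 0.25). For PreIR-NTN against NonIR it was -0.06 for Cirbp and -0.03 for Rbm3. Over the 3 comparisons the ends of these intervals ran between fold changes of 0.760 and 1.30 for Cirbp and of 0.769 and 1.29 for Rbm3. Rbm3 overlaps its antisense gene Rbm3os over 452 bases, and their reads cannot be told apart.

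Across the 13 libraries Cirbp and Rbm3 moved together. Of 45 pairs among the 10 genes, theirs was the only one past the threshold, with Pearson's r of 0.817 (permutation p = 0.00072, adjusted over the 45 pairs 0.0324). Spearman's rho was 0.714 (permutation p = 0.00775, adjusted 0.174), which did not pass. Without the 2 libraries farthest from the median of Cirbp, NonIR 2 and PreIR-GFP 5, r was 0.771 (permutation p = 0.00606, adjusted 0.273), and the call was lost. With group means removed r was 0.823. Over all 45 pairs the median r was 0.14, with 27 positive and 18 negative. The heat-inducible twins Hspa1a and Hspa1b, at these low counts, had r of 0.495 (adjusted permutation p = 0.594).

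**Figure D4:**
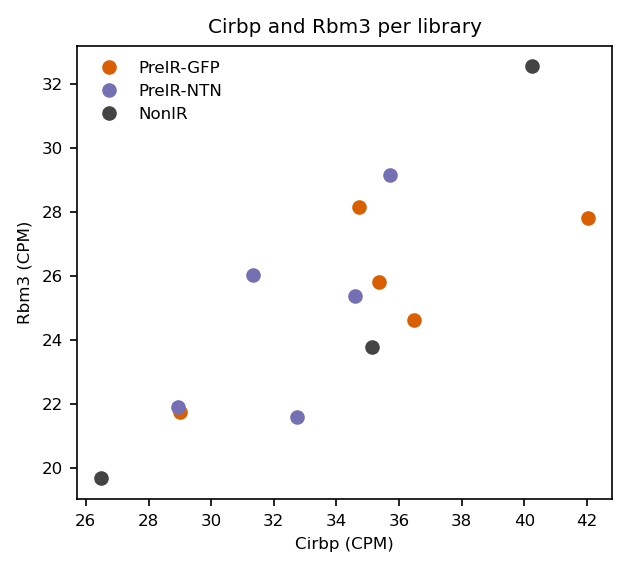
Rbm3 against Cirbp (both axes CPM, linear, not starting at 0) in the 13 libraries of PreIR-GFP (n = 5), PreIR-NTN (n = 5) and NonIR (n = 3). The points climb together from NonIR 2, at 26.5 CPM of Cirbp and 19.7 CPM of Rbm3, and the groups lie on top of one another.

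The 10 levels can be ordered only per length of exon. Per kilobase of annotated exon, the mean over the 13 libraries was 48.9 ± 6.25 CPM for Hspa8, 13.1 ± 1.69 for Cirbp, 9.54 ± 5.39 for Hspe1, 5.86 ± 1.31 for Hsp90aa1 and 5.37 ± 0.766 for Rbm3 (SD, n = 13). It was 4.35 ± 0.746 CPM per kilobase for Dnajb1, 1.44 ± 0.283 for Hsph1, 1.30 ± 0.991 for Hspb1, 0.219 ± 0.0683 for Hspa1a and 0.103 ± 0.0493 for Hspa1b (SD, n = 13). Hspa8 stood above Cirbp, Dnajb1 above Hsph1 and Hspb1 above Hspa1a by more than the sum of their SDs. The other neighbours in this order lay within the sum of their SDs. That rule leaves aside that all levels come from the same 13 libraries, and Hspa1a stood above Hspa1b in every library. The order rests on all annotated exons of each gene and can change with the length used. It can also change with the treatment of reads that map to several places.

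The 9 tested genes were balanced in direction. The log2 fold change was above 0 for 5 of 9 in PreIR-GFP against NonIR (52.7% of all genes tested), for 3 of 9 in PreIR-NTN against PreIR-GFP (47.3% of all genes) and for 5 of 9 in PreIR-NTN against NonIR (50.5% of all genes). Their median log2 fold change was 0.02, -0.05 and 0.07 in these comparisons, beside 0.02, -0.01 and 0.00 over all genes tested. The size of the change without its sign had a median of 0.12, 0.15 and 0.10 for the 9 genes and of 0.19, 0.15 and 0.19 over all genes tested. The comparisons share groups and are not independent. In each, 7 of 9 genes had a 95% interval inside a 2-fold change either way, and the exceptions were Hspb1 and Hspe1.

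The rest of the chaperone system was read from 6 lists with 62 genes, of which 60 were tested. None of the 60 was called in any comparison (edgeR), and the lowest adjusted p was 0.464 in PreIR-GFP against NonIR, 0.818 in PreIR-NTN against PreIR-GFP and 0.481 in PreIR-NTN against NonIR. At an unadjusted p below 0.05, 1 was higher and 3 were lower in PreIR-GFP against NonIR, none passed in PreIR-NTN against PreIR-GFP, and 1 was higher and 1 lower in PreIR-NTN against NonIR. Of all genes tested, 8.78%, 6.08% and 7.97% passed it in these comparisons, and the shares of the 60 were no higher. The called share of all genes was 0.034%, 0.0204% and 0.0204%. The median log2 fold change of the 60 was -0.06, 0.03 and 0.00.

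Among the regulators, the master factor Hsf1 averaged 9.78 CPM in PreIR-GFP, 9.36 CPM in PreIR-NTN and 9.23 CPM in NonIR. Its relative Hsf2 averaged 116 ± 40.9 CPM in PreIR-GFP, 134 ± 57.7 CPM in PreIR-NTN and 100.1 ± 32.1 CPM in NonIR (SD, n = 5, 5 and 3). Among HSP70 relatives, Hspa13, a microsomal form, averaged 15.5 CPM in PreIR-NTN and 21.7 CPM in NonIR without overlap, but was not called (log2 fold change -0.48, edgeR adjusted p = 0.481).

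Co-chaperones gave the lowest p-values in PreIR-GFP against NonIR. Bag1, a nucleotide exchange factor of HSP70, averaged 12.8 CPM in PreIR-GFP and 8.50 CPM in NonIR (log2 fold change 0.59, edgeR adjusted p = 0.486). Stub1, the ubiquitin ligase that marks HSP70 clients for degradation, averaged 14.8 CPM in PreIR-GFP and 20.7 CPM in NonIR (log2 fold change -0.49, edgeR adjusted p = 0.464). Ahsa1, which stimulates the ATPase of HSP90, averaged 30.2 CPM in PreIR-GFP and 40.3 CPM in NonIR (log2 fold change -0.42, edgeR adjusted p = 0.466). The constitutive Hsp90ab1 averaged 643 ± 128 CPM in PreIR-GFP and 526 ± 54.8 CPM in NonIR (SD, n = 5 and 3). Its log2 fold change was 0.29 (edgeR adjusted p = 0.663). It gave the same sign as Hsp90aa1, and neither was called.

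The 9 chaperonin genes had a median log2 fold change of -0.12 in PreIR-GFP against NonIR, -0.04 in PreIR-NTN against PreIR-GFP and -0.12 in PreIR-NTN against NonIR. None was called, and Cct6a, a subunit of the cytosolic chaperonin, had the lowest p among them in the first comparison. Its log2 fold change there was -0.32 (edgeR adjusted p = 0.546). Of the other small heat shock proteins, 6 of 8 were tested and none was called. Hspb8 averaged 29.6 CPM in PreIR-NTN and 25.3 CPM in PreIR-GFP (log2 fold change 0.22, edgeR adjusted p = 0.865), and 27.3 CPM in NonIR.

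**Figure D5:**
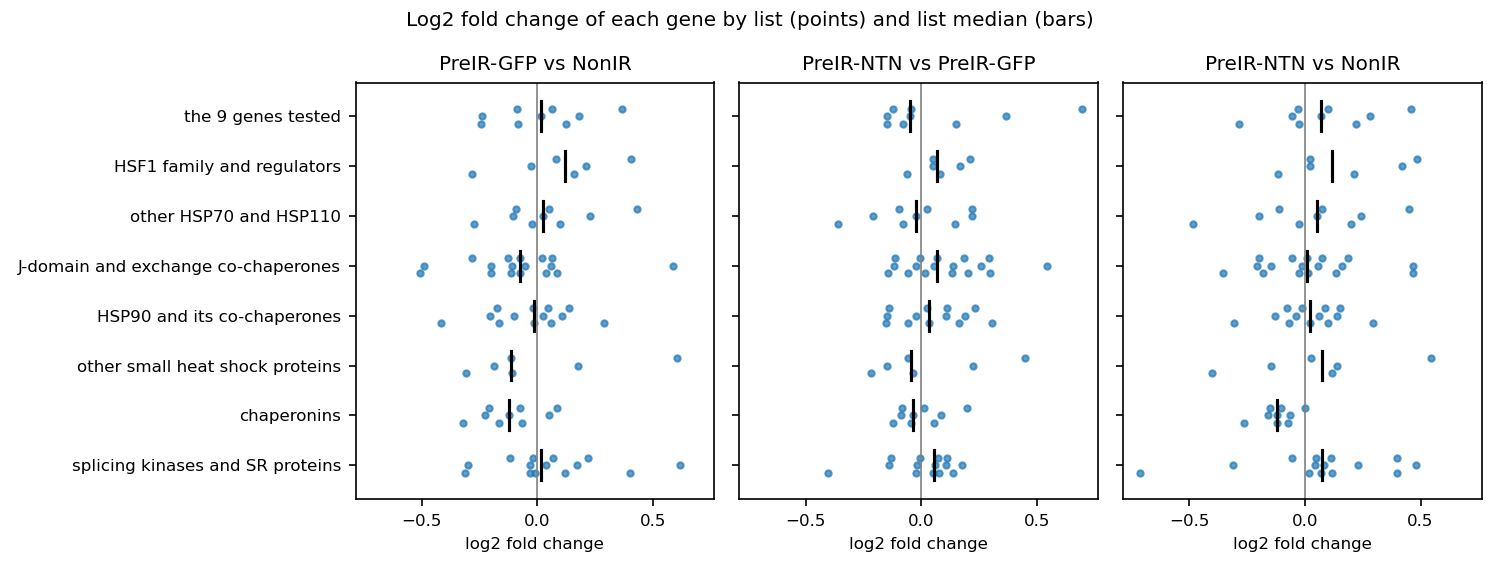
Log2 fold change (horizontal axes) of each tested gene in the 9 heat shock and cold-inducible genes, the 6 chaperone lists and the splicing list (rows), in the 3 comparisons. Points are genes and bars list medians, which lie between -0.12 and 0.12.

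Lists of 3 neighbouring programmes were read the same way. Of 14 temperature-sensitive splicing kinases and SR proteins, none was called. Srsf11, a splicing factor, averaged 104 ± 21.8 CPM in PreIR-GFP and 67.6 ± 7.88 CPM in NonIR (log2 fold change 0.62, edgeR adjusted p = 0.360). Of 17 circadian clock genes, 1 was called, in PreIR-GFP against NonIR, where 0.034% of all genes tested were called. Tef, a clock-driven transcription factor, averaged 43.7 ± 11.3 CPM in PreIR-GFP and 19.8 ± 0.799 CPM in NonIR (log2 fold change 1.15, edgeR adjusted p = 0.0452). Its log2 fold change was 1.03 to 1.33 in the 25 alternative settings, but the call held in 8 of them, with adjusted p from 5.17e-05 (DESeq2) to 0.423 (edgeR without NonIR 2). It was lost under upper-quartile scaling, limma-voom, limma-trend and the fit of only these 2 groups, each of which called 0 genes of the whole table. It was also lost without the 4 libraries low in short transcripts, and it held in 2 of the 13 fits without 1 library, those without PreIR-GFP 1 or PreIR-GFP 2. At an unadjusted p below 0.05, 4 clock genes were higher and 1 lower in PreIR-GFP against NonIR, where 8.78% of all genes passed, and the list's median log2 fold change was 0.30. Per3, a repressor of the clock, averaged 9.20 CPM in PreIR-GFP and 4.08 CPM in NonIR without overlap (log2 fold change 1.17, edgeR adjusted p = 0.233). Arntl, its activator, averaged 14.5 CPM in PreIR-GFP and 26.5 CPM in NonIR (log2 fold change -0.87, edgeR adjusted p = 0.232). PreIR-NTN against NonIR moved the same way, with a list median of 0.30 and no clock gene called. There the log2 fold change was 0.77 for Tef (edgeR adjusted p = 0.309) and -0.72 for Arntl (edgeR adjusted p = 0.417). Both were without overlap, as were 6.52% of all genes tested. For Per3 it was 0.54 with overlap (edgeR adjusted p = 0.686). In PreIR-NTN against PreIR-GFP, 3 clock genes were lower and 0 higher at an unadjusted p below 0.05, where 6.08% of all genes passed. The log2 fold change there was -0.63 for Per3 (edgeR adjusted p = 0.734) and -0.38 for Tef (edgeR adjusted p = 0.755), with 0 clock genes called. Cirbp and Rbm3, which follow body temperature through the day, had log2 fold changes of 0.06 and 0.02 in PreIR-GFP against NonIR. The part of time of day or temperature in any of these values was not tested.

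Of 23 immediate early genes, which respond to handling within minutes, 20 were tested and none was called. Fos averaged 1.14 ± 0.232 CPM in PreIR-NTN and 4.60 ± 4.09 CPM in PreIR-GFP (log2 fold change -2.01, edgeR adjusted p = 0.618), without overlap of the groups. In that comparison Hspa1a, Dnajb1 and Hsph1 had log2 fold changes of 0.15, -0.15 and -0.04. The part of handling in these values was not tested.

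The genes most like Hsph1 and Cirbp over the 13 libraries were found among 6763 genes of at least 10 CPM, by Pearson's r of log2 CPM, as a description. For Hsph1 these were Gramd3 (r = 0.868), Necap1 (0.821), Ccdc127 (0.816), Tbc1d15 (0.797) and Stk16 (0.782). For Cirbp they were Rtf2 (0.819), Kxd1 (0.812), Haus7 (0.809), Tor1b (0.809) and Stard7 (0.801). None of these is a chaperone of the lists. For Hspe1, added after the data were seen, they were Serf1 (0.984), Ndufa6 (0.984), Mrps18c (0.980), Hint3 (0.979) and Tbca (0.978). The longest transcripts of Serf1, Mrps18c and Tbca have 601, 820 and 633 bases, while those of Ndufa6 and Hint3 have 1141 and 2445 bases.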

How the data were processed

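RNA of 13 libraries was made into cDNA with SMART-Seq v4 and tagged with Nextera XT, per the labels' protocols. The submitters' processing notes name STAR 2.5.2a, GRCm38.p3 (also called mm10), DESeq2, edgeR and limma. The counting tool was not given in the sources used here, and the series description names other aligners, another instrument and triplicates, which the 13 labels do not match, and the labels were followed. The authors deposited raw read count values per gene (48733 entries, of which 24 are no genes and hold at most 5.85e-05% of reads) and a table of normalised signal, which on testing was each deposited count divided by 1 constant per library. The count table was used for all results, and the signal for 1 alternative.

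Here, filterByExpr kept 14727 genes, and edgeR 4.0.16 (R 4.3.3; TMM scaling, robust quasi-likelihood test, legacy off) took all 13 libraries together, each group with its own mean. Every adjusted p of a gene is Benjamini-Hochberg over all genes tested, threshold 0.05, two-sided. CPM is TMM-scaled, correlations used log2 CPM with a prior count of 2, and their permutation p-values used 100000 resamples. Alternatives were DESeq2 1.42.0, limma 3.58.1, other scalings, no filter, fits of only 2 groups, a replicate block and leaving out libraries. The short-transcript covariate and leaving out the 4 libraries low in short transcripts were chosen after seeing the data. Error bars of low counts include counting error only as far as the reads show it, since PCR reads without molecular identifiers are not independent molecules. The script was tested on simulated data. Gene positions and transcript lengths came from GENCODE M21 and promoters from RefSeq (GRCm38.p6).

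The members and lists were chosen with earlier results of these data known. The named genes were all 10 members, every gene of a list past the threshold, and otherwise genes among the 2 with the lowest p per list in PreIR-GFP against NonIR and in PreIR-NTN against PreIR-GFP. Hsf1 was named outside that rule, as the regulator of the response. Named likeness genes were the 5 highest r.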

Additional observations from a re-analysis of the deposited data

Results flagged for a closer look

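In Hspb1, the library PreIR-GFP 4 stood apart from the rest of its group, at 2.56 CPM against 0.363 to 0.938 CPM in the other 4 PreIR-GFP libraries. Its gap to the nearest library, divided by the range of the group, exceeded Dixon's critical value of 0.71 for 5 samples. It was the 1 such library among the 20 groups of 5 tested over the 10 genes, and chance flags about 1 in 20 groups.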

How the results depend on the processing

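Over 25 alternative settings the 9 tested genes gave 675 log2 fold changes, of which 637 kept their direction and none of those with an adjusted p gained or lost a call. In all 25 settings 0 of the 9 were called, and the lowest adjusted p was 0.266 (Hsp90aa1 in PreIR-GFP against NonIR without PreIR-GFP 4). Many settings called 0 genes of the whole table in PreIR-GFP against NonIR. Among them were upper-quartile scaling, limma-voom, limma-trend, the fit of only 2 groups and the replicate block. DESeq2 called 72 genes there. Where a setting called 0 genes of the whole table, its count of 0 of the 9 carries no information. Scaling moved the median of all genes by at most 0.0121 (log2). The 38 values that turned sign were at most 0.29 in size (log2). In PreIR-GFP against NonIR they were Rbm3 with DESeq2 (-0.000816), Hspa1a summed with Hspa1b (0.17), Hspb1 (0.13) and Hspe1 (0.24) without PreIR-GFP 1 and 2, and Hspa1a (0.025) without the 4 libraries low in short transcripts. In PreIR-NTN against PreIR-GFP they were the summed Hspa1a (-0.027) and, without PreIR-GFP 1 and 2, Hsp90aa1 (0.090). In PreIR-NTN against NonIR they were, without the 4 libraries, Cirbp (0.054) and Rbm3 (0.13), and Hspb1 with the replicate block (-0.29). The cause was not tested. Leaving out 1 library at a time gave, in PreIR-GFP against NonIR, -0.24 to 0.20 for Hspa1a, -0.90 to 0.17 for Hspb1, -0.49 to 0.26 for Hspe1, -0.089 to 0.22 for Cirbp and -0.14 to 0.25 for Rbm3. It gave -0.14 to 0.068 for Hsph1 and -0.080 to 0.0016 for Rbm3 in PreIR-NTN against PreIR-GFP. In PreIR-NTN against NonIR it gave -0.073 to 0.36 for Hspa1a, -0.081 to 0.066 for Dnajb1, -0.067 to 0.87 for Hspb1, -0.077 to 0.63 for Hspe1, -0.21 to 0.11 for Cirbp and -0.19 to 0.21 for Rbm3. The labels do not say that equal replicate numbers share an animal. The deviations of 11 pairs of equal number correlated between -0.43 and 0.28, with 3 over 0.1. Pairs of unequal number ran from -0.50 to 0.53. These correlations thus show no pairing by number, but they cannot exclude one. The replicate block called 0 of the 9 genes in each comparison, but in PreIR-GFP against NonIR it called 0 genes of the whole table. In PreIR-GFP against NonIR it gave Hsp90aa1 0.46 (edgeR adjusted p = 0.589, unadjusted below 0.05) and Tef 1.10 (edgeR adjusted p = 0.225, not called). Of 45 pairs, 1 passed (Cirbp and Rbm3), and 0 passed without the 2 farthest libraries. Read depth limits Hspa1a, Hspa1b and Hspb1 most.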
